A study of Mus musculus with 10 samples.

Results

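The genes described here are Tecta, Tectb, Otog, Otogl, Otoa and Ceacam16, which encode proteins of the acellular gels of the inner ear other than collagens, together with Umodl1, which encodes a protein with a zona pellucida domain. They were taken by symbol from the table of 18725 genes, and all 7 were found. All 7 also passed the filter on low counts, which kept 14862 genes. Umodl1 and Ceacam16, under 10 counts in every hypothyroid library, passed only through their euthyroid libraries, as did Tectb. All 7 genes were selected on their read counts in hypothyroid against euthyroid libraries, with that difference already known. It is therefore described for them by library values, folds and overlap, without a test.

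RNA was sequenced from the microdissected outer sulcus of the cochlea, an epithelial strip lateral to the organ of Corti, taken along with the spiral ligament under it. All mice were C57BL/6J, and the tissue was taken at postnatal day 10. The 5 hypothyroid libraries came from offspring of dams whose drinking water held 0.05% methimazole and 1.0% sodium perchlorate monohydrate, with 5.0% sucrose, from embryonic day 17 and through lactation. Methimazole blocks hormone synthesis in the thyroid and perchlorate blocks its uptake of iodide. The 5 euthyroid libraries came from offspring of dams given vehicle over the same period. The labels do not tie a library to an animal or a litter, so the spread within a group may be partly technical, and litter and treatment cannot be told apart. The RNA extraction text names another tissue and age (joint cartilage at a later day), whereas the other labels name the cochlea. Otor, a gene of cochlear fibrocytes, averaged 6057 ± 797 CPM in hypothyroid and 5477 ± 258 CPM in euthyroid libraries (SD, n = 5 each), where CPM is the count scaled to the adjusted library size.

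The tectorial membrane is an extracellular gel that lies over the hair cells and against which their bundles are deflected by sound. Its collagen fibrils run through a striated sheet built from α-tectorin (Tecta) and β-tectorin (Tectb), secreted proteins that polymerise through their zona pellucida domains, with Ceacam16 as an associated glycoprotein. Otogelin (Otog) and its paralogue otogelin-like (Otogl) are large mucin-related proteins of this gel and of the gels over the vestibular sensory patches, and otoancorin (Otoa) sits where the membrane attaches to the spiral limbus. Most of this matrix is laid down before hearing begins, in a period when the rodent cochlea depends on thyroid hormone, and mutations in most of these genes cause deafness in humans.

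The hypothyroid libraries held 19298145 to 19407592 estimated counts and the euthyroid libraries 19781921 to 20063961. Of the 14862 genes tested across the table, 71.8% differed between the groups (edgeR adjusted p under 0.05), 37.7% higher and 34.1% lower in hypothyroid libraries, and in 57.9% of genes the groups did not overlap. Scaled by library size alone, 74.7% of called genes were higher, against 52.5% with composition factors, and the log2 fold changes had a median of 0.30, against 0.04. In limma fits on log2 TPM 71.3% and 71.2% of called genes were higher. Changes smaller than this shift have no fixed direction. Among 10 outer sulcus and root cell markers 7 fell, 2 rose and 1 did not pass, and their summed level was 3450 to 4134 CPM in hypothyroid and 8083 to 8854 CPM in euthyroid libraries. Among 7 spiral ligament markers 4 rose, 2 fell and 1 did not pass, at 7378 to 9469 CPM in hypothyroid and 11980 to 15300 CPM in euthyroid libraries. Kcnj16 fell 24.4-fold, Sparcl1 fell 2.49-fold and Dpp10 rose 7.09-fold among the epithelial markers, and Otos fell 69.7-fold and Coch 11.0-fold among those of the ligament, where Tgfbi, Aqp1 and Tbx18 rose 3.32-fold, 2.675-fold and 1.37-fold (edgeR adjusted p of at most 1.08e-05). Pou3f4 was 1.12-fold higher (edgeR adjusted p = 0.0258), a call lost without euthyroid replicate 4, euthyroid replicate 5 or hypothyroid replicate 5 (up to 0.0814 over the alternatives) and smaller than the shift between scalings. The call of Lmx1a, 1 of the 7 epithelial markers that fell, was lost with library size alone and in both limma fits (up to 0.834). In bulk tissue, fewer cells of a type and less RNA per cell cannot be told apart.

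Of the 7 genes, 5 were lower and 2 were higher in hypothyroid tissue. Of the 2 higher genes, Otog had a log2 fold change of 0.19 (SE 0.22), smaller than the shift between scalings, so no direction is read from it. The groups did not overlap for 5 lower genes and 1 higher gene, beside 28.5% and 29.4% of all genes tested. At least 2-fold lower were 4 genes and at least 2-fold higher 1 gene, beside 7.95% and 9.32% of all genes. Umodl1, Ceacam16 and Tectb were each more than 8-fold lower, beside 1.14% of all genes. As these differences chose the genes, nothing is read from the shares. Tecta lay in the other direction, and Otog was the gene whose libraries overlapped.

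**Figure D1:**
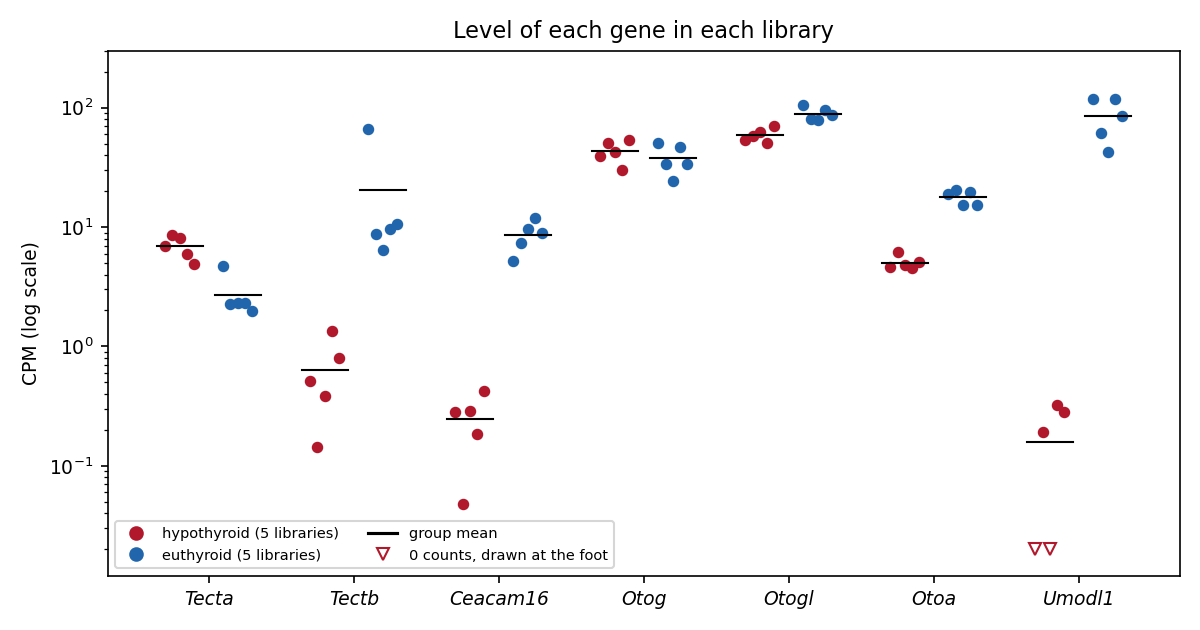
Level of the 7 genes in CPM (log axis) in each of the 5 hypothyroid libraries (red, left of each pair) and the 5 euthyroid libraries (blue), with the group mean as a line and libraries with 0 counts drawn as open triangles at the foot. Umodl1, Ceacam16 and Tectb lie far lower in hypothyroid libraries, Tecta lies higher, Otog overlaps, and 1 euthyroid library stands at 66.7 CPM for Tectb.

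The 2 tectorins, partners in the same sheet, differed in opposite directions. Tecta had 6.97, 8.602, 8.05, 5.905 and 4.90 CPM in hypothyroid replicates 1 to 5, against 4.70, 2.26, 2.31, 2.31 and 1.995 CPM in euthyroid replicates 1 to 5. The groups did not overlap, but the highest euthyroid library and the lowest hypothyroid library lay close together. Its log2 fold change (hypothyroid minus euthyroid, from the edgeR fit) was 1.34 with an approximate standard error (SE) of 0.23, or 2.53-fold higher, and without euthyroid replicate 1 it was 3.07-fold higher. Tecta is overlapped by an antisense gene, Gm47629, which has no row of its own in the table. Tectb had 0.514, 0.143, 0.386, 1.34 and 0.801 CPM in hypothyroid libraries, against 66.7, 8.78, 6.43, 9.57 and 10.6 CPM in euthyroid ones. Every hypothyroid library was below every euthyroid one, and the hypothyroid values rest on 68 counts in all, against 1875 in euthyroid libraries. The fold depended on euthyroid replicate 1. With that library Tectb was 31.7-fold lower (log2 fold change -4.98, SE 1.02) and without it 13.8-fold lower (log2 fold change -3.79).

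The same euthyroid library stood apart for both tectorins. Its Tectb level was 6.27-fold above the next highest euthyroid library and its Tecta level 2.03-fold above. Searched after this was seen, 6 genes of at least 2 CPM were at least 2-fold above all other euthyroid libraries in replicate 1, and Tectb and Tecta were both among them. The others were LOC100861978, Gm41885, Gm42267 and Amd2. The same search gave 1, 5, 5 and 4 genes in euthyroid replicates 2 to 5. Across the 5 euthyroid libraries the coefficient of variation of Tectb was 127%, at the 99.9th percentile of the genes tested, whose median was 7.97%.

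Per transcript length, the balance between the tectorins was inverted. The ratio of Tecta to Tectb in TPM, the level per transcript length, was 4.65, 23.7, 6.98, 1.57 and 2.14 in hypothyroid replicates 1 to 5, against 0.0249, 0.1001, 0.133, 0.0877 and 0.0644 in euthyroid replicates 1 to 5. Tecta thus exceeded Tectb in every hypothyroid library and was well below it in every euthyroid library. The high ratio of hypothyroid replicate 2 rests on 3 counts of Tectb.

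The sequence upstream of the annotated start is shown for the tectorins, which differed in opposite directions, and for Umodl1, the gene with the largest fold. The 250 bases before the start, 5′ to 3′ on the strand of the gene, are from RefSeq on GRCm38.p6, at chr9:42401691-42401940 on the minus strand for Tecta (the first of 2 annotated starts), chr19:55180476-55180725 on the plus strand for Tectb and chr17:30954433-30954682 on the plus strand for Umodl1. The start used for Umodl1 lies inside its annotated gene span, which begins at position 30954648, so the last bases printed for it belong to that span.
Tecta: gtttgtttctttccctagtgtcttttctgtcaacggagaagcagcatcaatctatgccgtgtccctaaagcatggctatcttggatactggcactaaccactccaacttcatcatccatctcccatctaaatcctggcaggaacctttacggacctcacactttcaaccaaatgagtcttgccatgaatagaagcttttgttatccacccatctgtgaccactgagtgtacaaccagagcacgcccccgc
Tectb: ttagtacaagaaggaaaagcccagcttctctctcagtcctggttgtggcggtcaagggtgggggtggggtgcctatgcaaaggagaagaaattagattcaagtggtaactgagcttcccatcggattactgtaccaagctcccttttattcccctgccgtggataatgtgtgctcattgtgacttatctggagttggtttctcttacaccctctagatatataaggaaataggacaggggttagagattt
Umodl1: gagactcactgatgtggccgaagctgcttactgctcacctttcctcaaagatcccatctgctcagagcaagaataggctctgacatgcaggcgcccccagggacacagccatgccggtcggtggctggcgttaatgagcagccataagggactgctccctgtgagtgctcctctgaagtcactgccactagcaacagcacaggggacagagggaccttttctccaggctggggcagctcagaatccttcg
All letters are in lower case because none of the motifs searched was found. Only exact matches were searched, so close variants, such as tatataag in the Tectb sequence, are not marked. AGGTCA, the half-site of nuclear receptors such as the thyroid hormone receptor, its direct repeat with a spacer known as DR4, which contains the half-site, and TATAAA, a core promoter element, were searched on both strands in windows that reach 50 bases past the start. The 6 windows of the 5 genes with an entry (Tecta, Tectb, Otog, Otoa and Umodl1) held no match, beside 16.3%, 0.0152% and 13.6% of all 32851 windows. The GC content of the upstream bases was 47.2% for Tecta, 46.0% for Tectb and 57.6% for Umodl1.

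Ceacam16, whose product belongs to the carcinoembryonic antigen family and is secreted into the tectorial membrane, was close to absent. It had 0.281, 0.0475, 0.289, 0.185 and 0.424 CPM in hypothyroid libraries, against 5.24, 7.32, 9.59, 11.8 and 8.98 CPM in euthyroid libraries. All hypothyroid values were far below the euthyroid ones, at 26 counts in all against 775. The log2 fold change was -5.09 (SE 0.32), or 34.2-fold lower. In euthyroid replicate 1, where the tectorins were highest, Ceacam16 was at its lowest. Gm19345 lies across the end of Ceacam16 on the other strand, and as the libraries are not stated to keep the strand, reads of the overlap cannot be assigned with certainty. Gm19345 had 0 counts over the hypothyroid libraries and 231 over the euthyroid ones, at least 90.1-fold lower against a floor of 3 counts over the group. In euthyroid replicate 1 Gm19345 was at its highest, 3.94 CPM against 1.97 to 2.49 CPM in the other euthyroid libraries. How far Ceacam16 was lower in that library is therefore uncertain. With the counts of Gm19345 added to those of Ceacam16 the log2 fold change was -5.47.

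The otogelins, which share an ancestry with gel-forming mucins, differed little. Otog had 39.55, 50.85, 42.6, 30.2 and 53.3 CPM in hypothyroid libraries, against 50.5, 33.65, 24.5, 46.8 and 33.9 CPM in euthyroid libraries. The groups overlapped over most of their range (43.3 ± 9.26 CPM in hypothyroid and 37.9 ± 10.6 CPM in euthyroid libraries, SD, n = 5 each), with a log2 fold change of 0.19 (SE 0.22). Otogl had 53.5, 58.1, 62.5, 50.75 and 70.7 CPM in hypothyroid libraries, against 104, 80.1, 78.9, 96.6 and 86.4 CPM in euthyroid libraries. The groups did not overlap, and the level was 1.51-fold lower (log2 fold change -0.60, SE 0.098), or -0.33 when scaled by library size alone. The ratio of Otogl to Otog in TPM was 1.48 to 2.23 in hypothyroid and 2.62 to 4.12 in euthyroid libraries, so the paralogues did not differ by the same factor.

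Otoa, the gene of the anchoring protein otoancorin, was lower by a factor between those of Otogl and Tectb. It had 4.63, 6.23, 4.77, 4.52 and 5.09 CPM in hypothyroid libraries, against 18.85, 20.5, 15.2, 19.8 and 15.2 CPM in euthyroid libraries. Its coefficient of variation was 13.7% in hypothyroid and 14.15% in euthyroid libraries, above the medians of all genes tested, 8.46% and 7.97%. The lowest euthyroid library was still more than 2-fold above the highest hypothyroid one. The log2 fold change was -1.83 (SE 0.12), or 3.55-fold lower, and -1.79 to -1.91 with any single library left out.

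Umodl1 had the largest fold of the 7 genes. It had 0, 0.190, 0, 0.323 and 0.283 CPM in hypothyroid libraries, which are 0, 4, 0, 7 and 6 counts, against 118, 60.9, 42.7, 119 and 84.4 CPM in euthyroid libraries. At this depth 0 counts allow up to 0.140 CPM in hypothyroid replicate 1 and 0.145 CPM in hypothyroid replicate 3. The log2 fold change was -9.00 (SE 0.59), or 511-fold lower, on 17 counts in all against 7710, so its size is uncertain. The floors given for 0 counts cover counting error only. The euthyroid libraries differed among themselves by up to 2.78-fold, with a coefficient of variation of 39.98%, at the 96.7th percentile of the genes tested. Its annotated span overlaps 2 antisense genes, AC165951.1 and AC165951.3, which have no row of their own in the table.

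By TPM, which compares genes per length, the order of the 7 genes differed between the groups. In hypothyroid libraries Otogl led with 20.3 ± 2.67 TPM, followed by Otog with 11.4 ± 2.49, Otoa with 3.63 ± 0.490, Tecta with 2.48 ± 0.514, Tectb with 0.658 ± 0.470, Ceacam16 with 0.158 ± 0.0884 and Umodl1 with 0.0840 ± 0.0808 TPM (SD, n = 5 each). The library ranges of neighbours in this order were separate down to Tectb, and those of Tectb, Ceacam16 and Umodl1 overlapped in turn. In euthyroid libraries Umodl1 led with 38.7 ± 15.5 TPM, followed by Otogl with 25.9 ± 3.10, Tectb with 17.8 ± 23.3, Otoa with 11.1 ± 1.72, Otog with 8.56 ± 2.44, Ceacam16 with 5.26 ± 1.605 and Tecta with 0.834 ± 0.365 TPM (SD, n = 5 each). There the range of each gene overlapped that of the next, except that Tecta lay below all of Ceacam16.

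The sum of the 7 genes was 33.1 to 45.8 TPM in hypothyroid and 67.0 to 172 TPM in euthyroid libraries, without overlap. Within that sum the otogelins took most in hypothyroid libraries, Otogl 52.5% ± 2.50 and Otog 29.2% ± 3.25, against 25.65% ± 5.86 and 8.11% ± 0.900 in euthyroid libraries (SD, n = 5 each). Umodl1 took 0.217% ± 0.221 in hypothyroid and 35.5% ± 6.575 in euthyroid libraries. Tecta, the scarcest in euthyroid tissue at 0.783% ± 0.179, took 6.49% ± 1.47 in hypothyroid tissue.

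**Figure D2:**
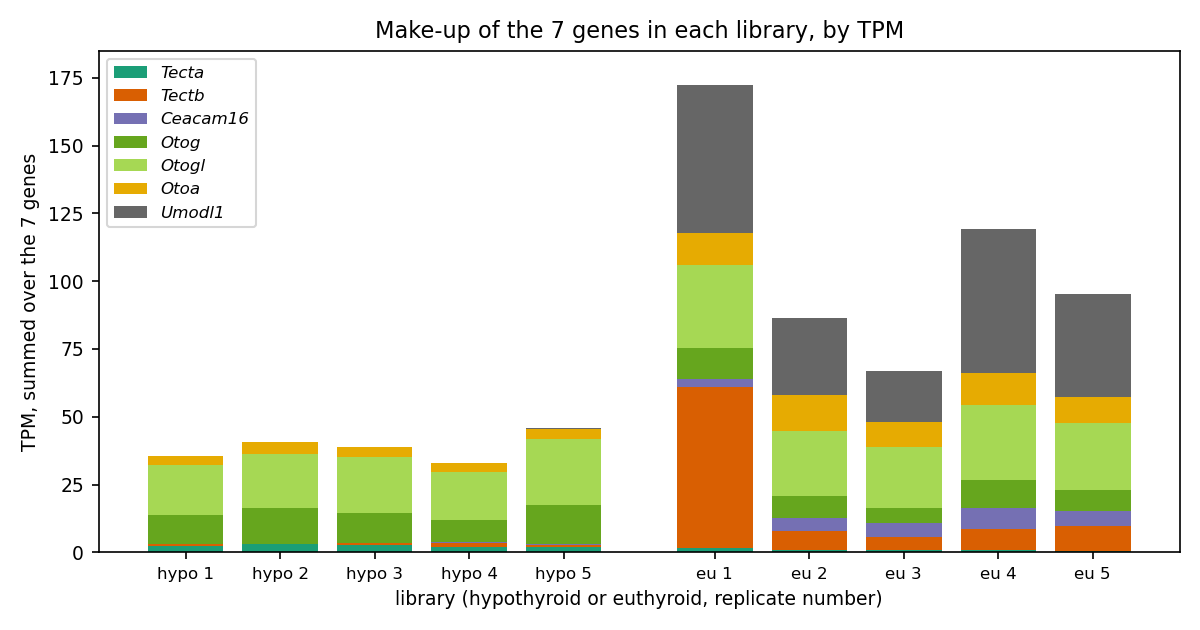
TPM of the 7 genes stacked for each library, the 5 hypothyroid libraries on the left and the 5 euthyroid libraries on the right. The stacks reach 33.1 to 45.8 TPM in hypothyroid libraries, mostly of Otogl and Otog, and 67.0 to 172 TPM in euthyroid libraries, where Umodl1 is a large part and Tectb swells 1 library.

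Hair cell genes differed in the same direction as most of these genes. Of 12 hair cell markers 9 were tested, of which 7 fell, 1 rose and 1 fell short of the threshold. Their log2 fold changes had a median of -1.24, also with Slc26a5 at its bound, beside 0.04 for all genes tested. Ocm, Slc26a5, Strc and Chrna10, under 10 counts in every hypothyroid library, passed the filter only through their euthyroid libraries. The median is therefore given as description only. Strc, the gene of stereocilin, which links outer hair cell bundles to the tectorial membrane, fell 55.4-fold to 8 counts in hypothyroid libraries, against 409 in euthyroid ones (edgeR adjusted p = 3.49e-07). Myo6, a myosin gene, fell 1.51-fold, and Myo7a, another myosin gene of the bundle, rose 2.45-fold. The summed level of the 12 markers, of which Myo6 is the largest part, was 245 to 292 CPM in hypothyroid and 369 to 463 CPM in euthyroid libraries. Slc26a5, the motor protein gene of outer hair cells, was at 0 in all hypothyroid libraries, against 641 counts in euthyroid ones. Of the others, Ocm had 4 counts and Pou4f3 1 count over the hypothyroid libraries, against 2715 and 86 in euthyroid ones. Other markers kept more of their level, with Otof 2.36-fold and Espn 1.60-fold lower. Tmc1, which fell short of the threshold, had 244 and 282 counts in hypothyroid and euthyroid libraries (edgeR adjusted p = 0.0804, and 0.0272 to 0.49 over the alternatives). The part of hair cells in the differences of Umodl1, Tectb and Ceacam16 was not tested.

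Among the euthyroid libraries, several of the 7 genes and the outer hair cell genes Ocm and Slc26a5 were lowest in the same libraries. Umodl1, Otog and Otogl were lowest in replicates 3 and 2 (Otog and Otogl with replicate 5 close by) and highest in replicates 1 and 4. Ocm, the oncomodulin gene of outer hair cells, had 30.3, 19.3, 14.95, 47.2 and 38.3 CPM in euthyroid replicates 1 to 5, and Slc26a5 had 8.64, 4.63, 4.17, 10.6 and 7.37 CPM, so both were also lowest in replicates 3 and 2. At the upper end Ocm was highest in replicates 4 and 5, and Slc26a5 in replicates 4 and 1. Ocm and Slc26a5 were picked for this after their values were seen, and 5 libraries are too few for a correlation. Strc and Chrna10 were also lowest in replicates 2 and 3, but not all hair cell markers were. Myo6 was highest in replicate 3 at 375 CPM, and Otof was lowest in replicate 5 at 4.27 CPM. The supporting cell marker Fgfr3 was lowest in replicates 2 and 3 too, at 52.7 and 55.2 CPM, as were Cdkn1b and Prox1. Not all supporting cell markers were, as Lgr5 and Sox2 were highest in replicate 2, at 135 and 2.96 CPM. Tectb was lowest in replicates 3 and 2 as well, with its large excess in replicate 1. Ceacam16 and Otoa had another order, with Ceacam16 lowest in replicate 1, where the overlapping Gm19345 was highest, and Otoa highest in replicate 2.

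**Figure D3:**
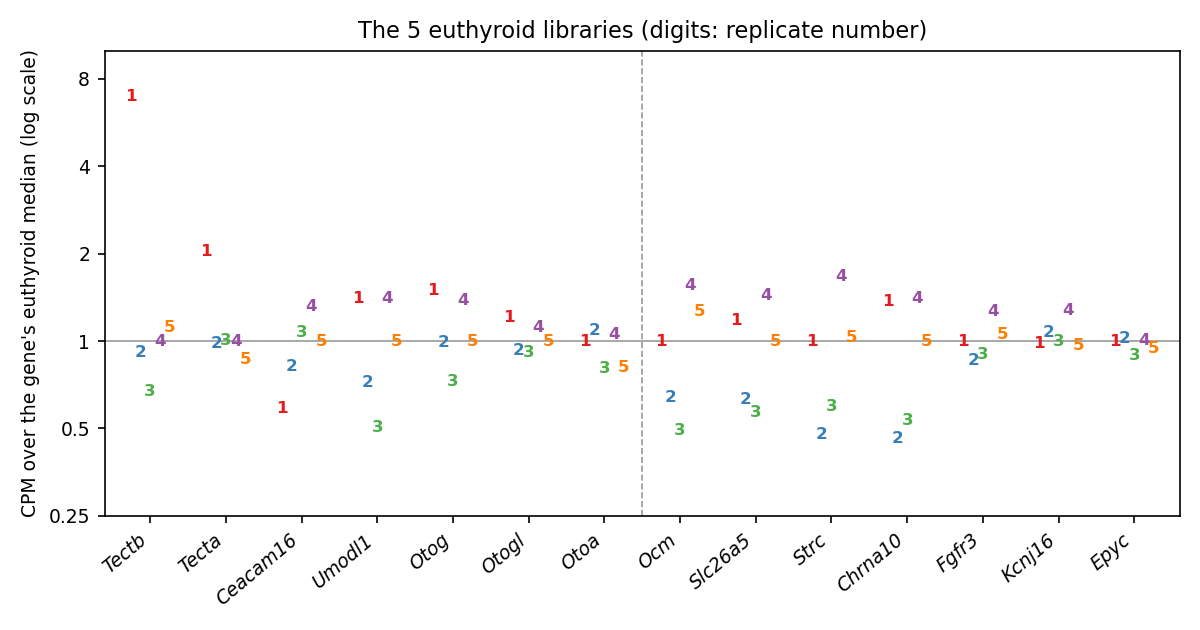
Level of the 7 genes (left of the dashed line) and of 7 marker genes (right of it) in the 5 euthyroid libraries, each divided by the median of that gene over these libraries (log axis), with the digit giving the replicate number. Replicate 1 stands apart for Tectb and Tecta. Replicates 2 and 3 lie low for Umodl1 and the hair cell genes Ocm, Slc26a5, Strc and Chrna10, and by less for the supporting cell gene Fgfr3. Kcnj16 and Epyc vary little, but they do not stand for all 10 outer sulcus and root cell markers. P2rx2 and Bmp4, not drawn, are lowest in replicate 3, at 22.2 and 44.7 CPM.

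Markers of other epithelial cells split. Of 8 supporting cell markers of the organ of Corti 6 were tested, of which 4 fell, 1 rose and 1 did not pass. The gene that rose, Prox1 (edgeR adjusted p = 0.0204), was lost without euthyroid replicate 2, euthyroid replicate 3 or hypothyroid replicate 5 (up to 0.0629). The summed level of the 8 was 180 to 193 CPM in hypothyroid and 355 to 413 CPM in euthyroid libraries. Lgr5, a Wnt pathway receptor gene, fell 2.99-fold, Fgfr3, a growth factor receptor gene of pillar and Deiters cells, 3.06-fold, and Cdkn1b, a cell cycle inhibitor gene, 1.49-fold. Of the untested markers, Hes5 had 6 counts in each group, whereas Sox2 had 25 in hypothyroid and 190 in euthyroid libraries. The greater epithelial ridge, the medial epithelium that secretes much of the tectorial membrane, was represented by 4 markers, of which 3 were tested. Its markers went both ways, with Fgf10, a growth factor gene, 4.98-fold lower, Jag1, a Notch ligand gene, 1.41-fold higher and Fst, the follistatin gene, 5.05-fold higher (edgeR adjusted p of 2.06e-06, 0.00115 and 1.39e-11). Their sum was 143 to 175.5 CPM in hypothyroid and 42.3 to 49.05 CPM in euthyroid libraries, mostly Fst and Jag1. The part of these cells in the levels of the 7 genes was not tested.

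All 6 collagen genes of the tectorial membrane fell, with a median of -1.36 on the log2 scale, in a range from 2.285-fold for Col11a2 to 3.87-fold for Col11a1. Col2a1, the type II chain, averaged 12480 ± 392 CPM in hypothyroid and 32350 ± 2002 CPM in euthyroid libraries (SD, n = 5 each), and Col9a1, a type IX chain, 5256 ± 282 and 13050 ± 467 CPM in the same order of groups. Col9a2 and Col9a3 fell 2.555-fold and 3.07-fold. These are also the collagens of cartilage, and are no measure of the tectorial membrane alone.

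Of 11 other genes with a zona pellucida domain, 9 were in the table and only 3 passed the filter. Eng, a coreceptor gene of blood vessel endothelium, fell 2.01-fold, and Tgfbr3, a coreceptor gene for transforming growth factor, fell 1.28-fold, a call lost when scaled by library size alone and in both limma fits on TPM (edgeR adjusted p = 0.00103, and 2.03e-05 to 0.247 over the alternatives). Zpld1, whose product is found in the cupula, the gel of the semicircular canals, averaged 5.89 ± 1.02 CPM in hypothyroid and 3.555 ± 1.05 CPM in euthyroid libraries (SD, n = 5 each) and rose 1.65-fold (edgeR adjusted p = 0.00256). Oit3, Cuzd1 and the egg coat genes Zp1, Zp2 and Zp3 stayed below 1 CPM in both groups. Of these untested genes, Zp2 had 64 counts in hypothyroid and 4 in euthyroid libraries.

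Genes for attaching or cleaving these proteins went both ways. Tectorins and their relatives carry a furin-type cleavage site, and of the 4 convertase genes listed Furin fell 1.91-fold and Pcsk7 1.33-fold, whereas Pcsk5 rose 4.10-fold and Pcsk6 1.32-fold. Pcsk5 averaged 98.6 ± 6.73 CPM in hypothyroid and 24.0 ± 1.27 CPM in euthyroid libraries (SD, n = 5 each; edgeR adjusted p = 3.63e-13). Hpn, the gene of hepsin, a protease whose loss in mice alters the tectorial membrane, was at 12.6 CPM in both groups (log2 fold change 0.003, adjusted p = 0.974, and 0.00620 to 0.995 over the alternatives).

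Of 5 otoconia genes, which serve the mineral crystals of the vestibular gels, 3 were tested, of which 2 rose and 1 did not pass. Oc90, the gene of otoconin, averaged 177 ± 47.65 CPM in hypothyroid and 53.3 ± 13.05 CPM in euthyroid libraries (SD, n = 5 each) and rose 3.32-fold (edgeR adjusted p = 7.42e-05). Otol1, the gene of otolin, averaged 187 ± 36.3 CPM in hypothyroid and 92.7 ± 13.0 CPM in euthyroid libraries (SD, n = 5 each) and rose 2.02-fold (edgeR adjusted p = 0.000114). Noxo1, an oxidase subunit gene, was at 49.0 and 50.7 CPM in hypothyroid and euthyroid libraries and did not pass (adjusted p = 0.422, and 0.00227 to 0.814 over the alternatives). Its oxidase partner Nox3 had 15 and 2 counts, and the proton channel gene Otop1 4 and 7, in the same order of groups.

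**Figure D4:**
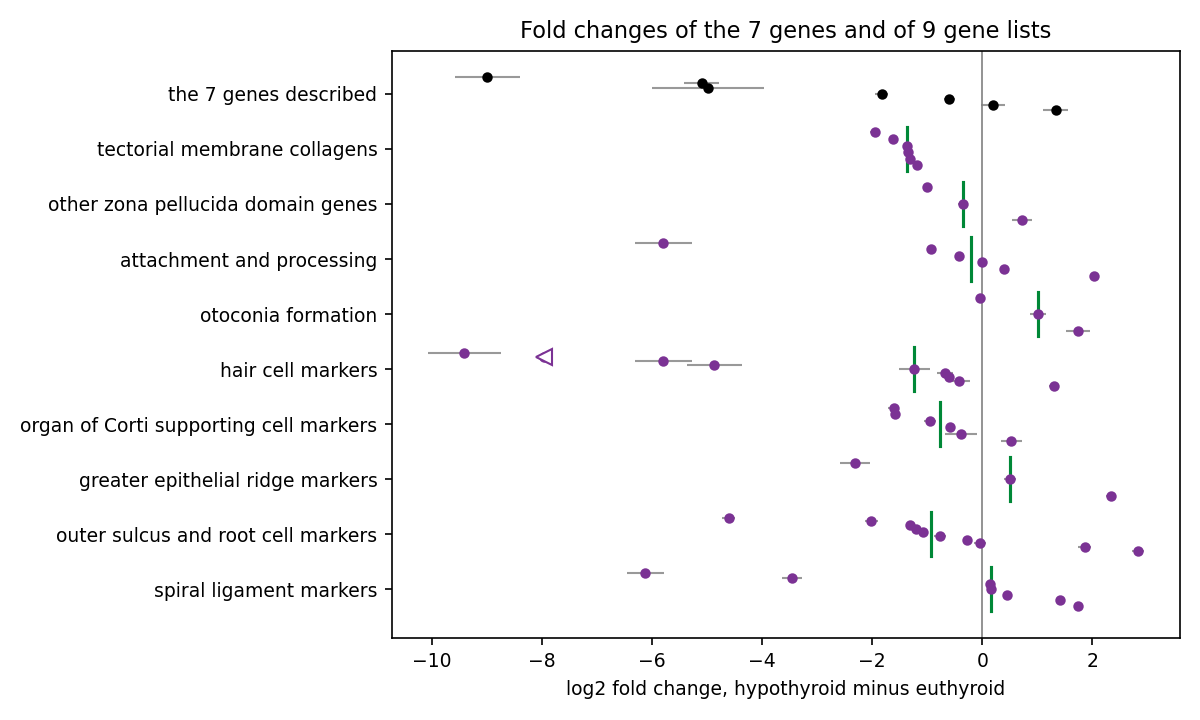
Log2 fold change (hypothyroid minus euthyroid, from the edgeR fit, with the approximate SE as a bar) of the 7 genes in black and of the tested members of 9 lists in purple, with the median of each list as a green line. The open triangle is Slc26a5 at its bound. The tectorial membrane collagens lie together between -1.95 and -1.19, whereas the 7 genes run from -9.00 to 1.34.

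On GRCm38.p6 the 7 genes lie on 5 chromosomes, with Otog (chr7:46240987-46311434), Otoa (chr7:121083424-121163093) and Ceacam16 (chr7:19852097-19871426) far apart on chromosome 7. Tecta spans chr9:42329622-42401690, Tectb chr19:55180726-55196313, Otogl chr10:107760530-107912379 and Umodl1 chr17:30954648-31010710. The nearest tested genes on each side, with Gm19345 counted as well, came to 15, of which 8 fell, 4 rose and 3 did not pass, beside 34.1% and 37.7% of all genes. Calls of the small changes depend on scaling, as Sergef beside Otog fell 1.30-fold here but did not pass with library size alone, and others on single libraries, as Ppp1r12a beside Otogl rose 1.09-fold here but did not pass without euthyroid replicate 1, 4 or 5 or hypothyroid replicate 5 (edgeR adjusted p up to 0.0764). Abcg1 and Dnah8 beside Umodl1 had log2 fold changes of 0.01 (edgeR adjusted p = 0.892) and 0.54 (0.00809), so neither was lower. Abcg1 was at 0.28 when scaled by library size alone. Beside Tectb, Gpam, an enzyme gene of lipid synthesis, fell 3.02-fold, and beside Tecta both Sc5d and Tbcel fell, 1.44-fold and 1.84-fold. Bcl3, a regulator gene of the NF-κB pathway 29.3 kb from Ceacam16, fell 13.5-fold to 0.764 ± 0.106 CPM in hypothyroid libraries, against 10.4 ± 0.955 CPM in euthyroid libraries (SD, n = 5 each; edgeR adjusted p = 4.19e-12). Ush1c, the gene of a hair bundle scaffold protein, 2.5 kb from Otog, fell 1.65-fold.

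Genes with the most similar pattern were ranked by the root mean square difference of log2 CPM over the 10 libraries, each gene centred on its mean, among the genes averaging 5 CPM or more. For a gene with a large fold, this distance is mostly set by the difference between the groups. Its nearest genes are then largely those with a similar fold. Nearest to Umodl1 were Tmprss9 (0.754), Col4a3 (0.7545) and Bglap2 (0.774), and nearest to Tectb were Lrrc55 (0.920), Derl3 (0.920) and Mylk4 (0.940). Nearest to Ceacam16 were Itih3 (0.416), Kcnj16 (0.469), a potassium channel gene of root cells, and Hsd11b1 (0.501). Nearest to Otoa were Klhl29 (0.119), Itgbl1 (0.127) and Dipk1a (0.132), and nearest to Otogl were Sema5a (0.0811), Ppm1l (0.0963) and Spata13 (0.0965). Tecta had Smim10l2a (0.246), Camkk1 (0.282) and Cdh18 (0.286) nearest to it, and Otog had Slitrk6 (0.178), Pcdhb19 (0.213) and Frem2 (0.215). For scale, the root mean square of each gene about its own mean was 4.32 for Umodl1, 2.43 for Tectb, 2.41 for Ceacam16, 0.919 for Otoa, 0.769 for Tecta, 0.351 for Otog and 0.339 for Otogl.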

How the data were processed

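Polyadenylated RNA of 10 libraries was sequenced as single-end reads, per the labels' protocols. HISAT2 2.0.4, Bowtie2 2.2.5 and RSEM 1.2.12 with GRCm38.p6 are named in the submitters' processing notes, without roles. The authors deposited expected counts per gene, which are estimates and need not be whole. Per the file headers, the authors also deposited TPM, FPKM and a scaled signal of the counts, of which FPKM and the signal were not used. Strandedness is not given in the sources used here.

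Expected counts were rounded, filtered with filterByExpr (minimum count 10), scaled with TMM factors (mean 1.10 in hypothyroid and 0.912 in euthyroid libraries) and tested with the quasi-likelihood test of edgeR 4.0.16 in R 4.3.3 (robust, group only, two-sided), with Benjamini-Hochberg adjustment over all 14862 genes and adjusted p under 0.05. The code was tested on simulated data. CPM used TMM-adjusted library sizes. SE is the absolute log2 fold change over the square root of F. Alternatives used DESeq2 1.42.0 and limma 3.58.1 on log2 of TPM plus a pseudocount of 1 or 0.1. Figures used Python 3.11.15 and matplotlib 3.10.9. Library pairs within groups (20 pairs) differed by a mean chi-square per gene of 5.21 to 15.1, above sampling noise, so none was counted as a duplicate.

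The 7 genes, the lists and the naming rule were chosen with earlier results of these data known. Named were the 7 genes, all tested genes of lists of up to 7 genes, the 3 with the smallest adjusted p of longer lists, the 3 nearest in pattern to each of the 7, and the nearest tested gene on each side. Of the table's gene IDs, 18669 matched the RefSeq table of GRCm38.p6. Ocm, Slc26a5, Chrna10, Pou4f3, Otof, Espn, Tmc1, P2rx2 and Bmp4 were added after their values were seen. So were the otherwise untested genes given by counts and the genes raised in 1 euthyroid library. One gene of that last set is not reported here.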

Additional observations from a re-analysis of the deposited data

Results flagged for a closer look

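Among 140 groups of 5 libraries examined, 8 had a highest or lowest library far from the others, and chance alone gives about 5%. Tectb in euthyroid replicate 1 stood at 66.7 CPM, where the next library had 10.6 CPM. Tecta stood apart in the same library, at 4.70 CPM, where the next had 2.31 CPM. Gm19345, which overlaps Ceacam16, was at 3.94 CPM in that library too, where the next had 2.49 CPM. The Tecta to Tectb ratio in TPM of hypothyroid replicate 2, at 23.7, lay far above the next, at 6.98, and rests on 3 counts of Tectb. In hypothyroid replicate 1 Fst was at 147 CPM, where the next library had 124 CPM, and with it the summed greater epithelial ridge markers were at 175.5 CPM, where the next had 148 CPM. Coch was lowest in hypothyroid replicate 4 at 196 CPM, where the next library had 262 CPM. Ush1c was highest in hypothyroid replicate 2 at 11.4 CPM, where the next had 9.30 CPM.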

How the results depend on the processing

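Over 18 alternatives and 1 added after seeing the data (counts of Gm19345 added to Ceacam16), none of the 7 genes changed direction. This leaves out Tecta and Ceacam16 under the stricter filter, which removed them, and for Otog no direction is read. Fold sizes of scarce genes such as Ceacam16 and Umodl1 depended on the pseudocount, whereas Otogl, which was not scarce, hardly differed between the pseudocounts. On log2(TPM + 1) with limma the log2 fold changes were -2.93 for Tectb, -0.33 for Otogl, -1.38 for Otoa, -2.40 for Ceacam16 and -5.10 for Umodl1, and on log2(TPM + 0.1) they were -0.35 for Otogl, -1.58 for Otoa, -4.41 for Ceacam16 and -7.74 for Umodl1. With library sizes alone Otogl was at -0.33 and Otoa at -1.56, close to their values on log2(TPM + 0.1). Leaving out single libraries gave -5.45 to -3.79 for Tectb.

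Genes called lower fell to 2930 with library sizes alone (8649 higher), and to 3115 and 3114 with limma at the larger and smaller pseudocount, against 5064 (5603 higher) as reported; called genes were 71.3% and 71.2% higher in the limma fits. For the other zona pellucida domain genes, 1 was lower with library sizes alone and in both limma fits, 2 were higher and 4 lower without a filter, 0 were higher with the stricter filter, and 1 to 2 were higher with single libraries left out. Of the supporting cell markers, 0 were higher with the stricter filter and in both limma fits, where Prox1 was too low to be tested, and 0 to 1 with single libraries left out, as Prox1 was lost without euthyroid replicate 2, euthyroid replicate 3 or hypothyroid replicate 5. Of the ligament markers, Pou3f4 was lost without euthyroid replicate 4, euthyroid replicate 5 or hypothyroid replicate 5. Of the greater epithelial ridge markers 0 were lower in the same 3 fits, where Fgf10 was too low to be tested. Of the hair cell markers 3 were lower with the stricter filter, which tests fewer. That filter (mean of at least 5 CPM) also removed Tecta and Ceacam16. Where no reason is given, the cause was not tested.

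The labels do not say whether same-numbered libraries share more than a number. Their deviations correlated at -0.077 to 0.108, which cannot settle whether they were paired. With the replicate block 10392 genes were called, against 10667 without it, and Tectb was at -4.64.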

Other observations

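Other euthyroid libraries held their own excess of a few genes, by the same search that found the tectorins in replicate 1. In replicate 5 the potassium channel gene Kcna1 and the tight junction gene Cldn19 were 3.65-fold and 3.45-fold above the next euthyroid library. In replicate 3 Mpo, a myeloid granule enzyme gene, was at 4.96 CPM and Slc4a1, the red cell anion exchanger gene, at 11.1 CPM, where the next libraries had 1.35 and 3.72 CPM. No gene of the 7 described here was in these sets for replicates 2 to 5.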
